A study of Homo sapiens with 48 samples.

Results

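The endoplasmic reticulum (ER) stress and ATF4 response was followed through 10 genes of 19847 in the deposited table, namely ATF4, DDIT3, TRIB3, CHAC1, ASNS, DDIT4, PPP1R15A, XBP1, HSPA5 and HERPUD1, and through the 84 splicing events that the table of events lists for them. 9 were taken as genes of this pathway, whereas HERPUD1 was chosen by measured values, the PSI of an exon that was skipped after SF3B1 knockdown only, so its exon inclusion is given here as a description and its values after knockdown carry no test. All 10 passed the minimum of 10000 counts summed over the libraries, as did 9991 genes, the set in which every test was made.

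IMR90 cells are human lung fibroblasts, and the IMR90 ER:RAS line used for all libraries carries a fusion of oncogenic RAS with the hormone-binding part of the oestrogen receptor. The ligand 4-hydroxytamoxifen (4OHT) switches the fusion protein on and drives the cells into senescence, whereas DMSO, the solvent, leaves it off in cells that carry the same construct. On day 6 of treatment the cells, kept in 0.5% serum, were transfected with non-targeting siRNAs (siNT1 or siNT2), siRNAs against the splicing factor SF3B1 (siSF3B1-13 or siSF3B1-16) or siRNAs against the splicing factor RBM39 (siRBM39-06 or siRBM39-08), and RNA was taken 2 days later. This gave 48 libraries in 6 groups of 8, each group made of 2 siRNAs with 4 replicates each.

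The smallest library held 31467221 counts, the largest 52734636 and the median 39656598. SF3B1 was at 25.3 to 35.2 CPM (counts scaled to library size after TMM correction) in all 16 siSF3B1 libraries against 311 to 396 CPM in siNT, and RBM39 was at 13.7 to 31 CPM in all 16 siRBM39 libraries against 115 to 185 CPM in siNT. Of the fibroblast markers, the 7 listed summed to between 11278 and 58561 CPM in each library, while 3 leukocyte markers summed to at most 1.07 CPM, 2 endothelial markers to at most 7.98 CPM and 3 epithelial markers to at most 57.0 CPM, nearly all of it KRT8. Replicate 4 of siRBM39-08 in 4OHT stood apart from the rest of its group, with ATF4 at 342 CPM where the other 7 reached 182 to 212 CPM, so calls after siRBM39 in 4OHT are also given without it.

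Cells answer the accumulation of unfolded proteins in the ER through sensors in its membrane, PERK, IRE1 and ATF6. PERK is one of several kinases that phosphorylate the translation factor eIF2, which lowers protein synthesis in general but raises translation of ATF4, a transcription factor that switches on genes of amino acid supply and of stress signalling. IRE1 splices the XBP1 mRNA, and XBP1 and cleaved ATF6 raise chaperones such as HSPA5 and the machinery that hands misfolded proteins to the proteasome, ER-associated degradation (ERAD), of which HERPUD1 is a part. The unconventional splicing of XBP1 by IRE1, the phosphorylation of eIF2 and the translation of ATF4 were not analysed here.

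An exon each of HERPUD1 and HSPA5 carries the splicing results, and both are shown with their acceptor sites. In the GRCh37 genome with the GENCODE annotation, the HERPUD1 exon lies at chr16:56969313-56969387 on the plus strand, between introns of 88 and 1211 bases. Its 75-base form is carried by 5 of the 19 annotated transcripts and a form that begins 3 bases later, 72 bases long, by 2, while 2 join the flanking exons directly. The event whose PSI is reported below has the length of the 72-base form. The HSPA5 exon lies at chr9:128002451-128002588 on the minus strand, is carried by 9 of 15 transcripts, with none that joins its flanks. All these lengths are multiples of 3, and the exon overlaps coding sequence in 4 of the 7 HERPUD1 and 3 of the 9 HSPA5 transcripts with this structure. Capitals mark the exon in the lines that follow (for HERPUD1 the 75-base form, whose first 3 bases the 72-base form lacks), lower case the intron before it (whole for HERPUD1, its last 60 bases for HSPA5) and 20 bases of the intron after it.
HERPUD1: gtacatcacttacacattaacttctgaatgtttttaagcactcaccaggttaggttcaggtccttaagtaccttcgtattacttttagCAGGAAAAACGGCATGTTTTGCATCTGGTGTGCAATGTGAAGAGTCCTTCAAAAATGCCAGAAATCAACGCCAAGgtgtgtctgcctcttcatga
HSPA5: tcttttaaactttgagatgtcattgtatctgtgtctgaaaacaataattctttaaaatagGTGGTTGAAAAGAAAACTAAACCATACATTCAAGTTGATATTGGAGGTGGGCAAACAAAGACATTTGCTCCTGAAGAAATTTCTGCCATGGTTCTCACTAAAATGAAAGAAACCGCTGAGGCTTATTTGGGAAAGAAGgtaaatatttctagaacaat
Of the last 20 intron bases, 14 were pyrimidines in HERPUD1 and 9 in HSPA5. GC content was 44% in the HERPUD1 exon and 38.4% in the HSPA5 exon. A link between these sequence features and exon inclusion was not tested.

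Promoters from 250 bases before to 50 bases after the start site were available for all 10 genes from RefSeq (GRCh38.p14) and were searched on both strands for the letters of response elements of this pathway. Only exact matches were counted, so a gene without a match, such as ASNS, may still carry a variant of an element. The core of the C/EBP-ATF response element (CARE), TTGCATCA, to which ATF4 dimers bind, was present in HERPUD1 and CHAC1, and in 304 of all 35116 promoters of this length (0.866%). The ER stress response element (ERSE), CCAAT and CCACG a fixed distance apart, bound by ATF6, was present in HSPA5 and XBP1 and in 27 promoters (0.0769%), and the related ERSE-II, ATTGG and CCACG with 1 free base between them, in HERPUD1 and in 19 (0.0541%). No promoter of the 10 held TGACGTGG, the core of the unfolded protein response element, which 256 promoters held (0.729%). The windows around the matches, in capitals, show that HERPUD1 carried letters of both the ATF4 and the ATF6 arm.
HERPUD1, chr16:56931956-56932045, plus strand: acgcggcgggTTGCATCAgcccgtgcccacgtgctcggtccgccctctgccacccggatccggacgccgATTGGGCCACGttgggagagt
CHAC1, chr15:40953252-40953279, plus strand: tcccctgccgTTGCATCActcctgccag
HSPA5, chr9:125241381-125241419, minus strand: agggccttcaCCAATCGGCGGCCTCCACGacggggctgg
XBP1, chr22:28800593-28800631, minus strand: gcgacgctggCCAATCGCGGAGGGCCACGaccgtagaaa

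In DMSO siNT cells, levels per length (cRPKM, reads scaled to mappable length and to depth) were highest for HSPA5 at 287 ± 15.6 cRPKM (SD, n = 8) and ATF4 at 189 ± 6.43, and lowest for TRIB3 at 24.7 ± 1.99 and DDIT3 at 23.9 ± 1.63. XBP1 (79.1 ± 3.87), ASNS (69.6 ± 4.03), HERPUD1 (48.3 ± 1.57), DDIT4 (46.5 ± 3.98), PPP1R15A (43.9 ± 0.908) and CHAC1 (27.6 ± 2.10) lay between. The mean ± SD ranges of HERPUD1 and DDIT4, of DDIT4 and PPP1R15A, of CHAC1 and TRIB3, and of TRIB3 and DDIT3 overlapped, so neighbours in these pairs could not be ordered.

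**Figure D1:**
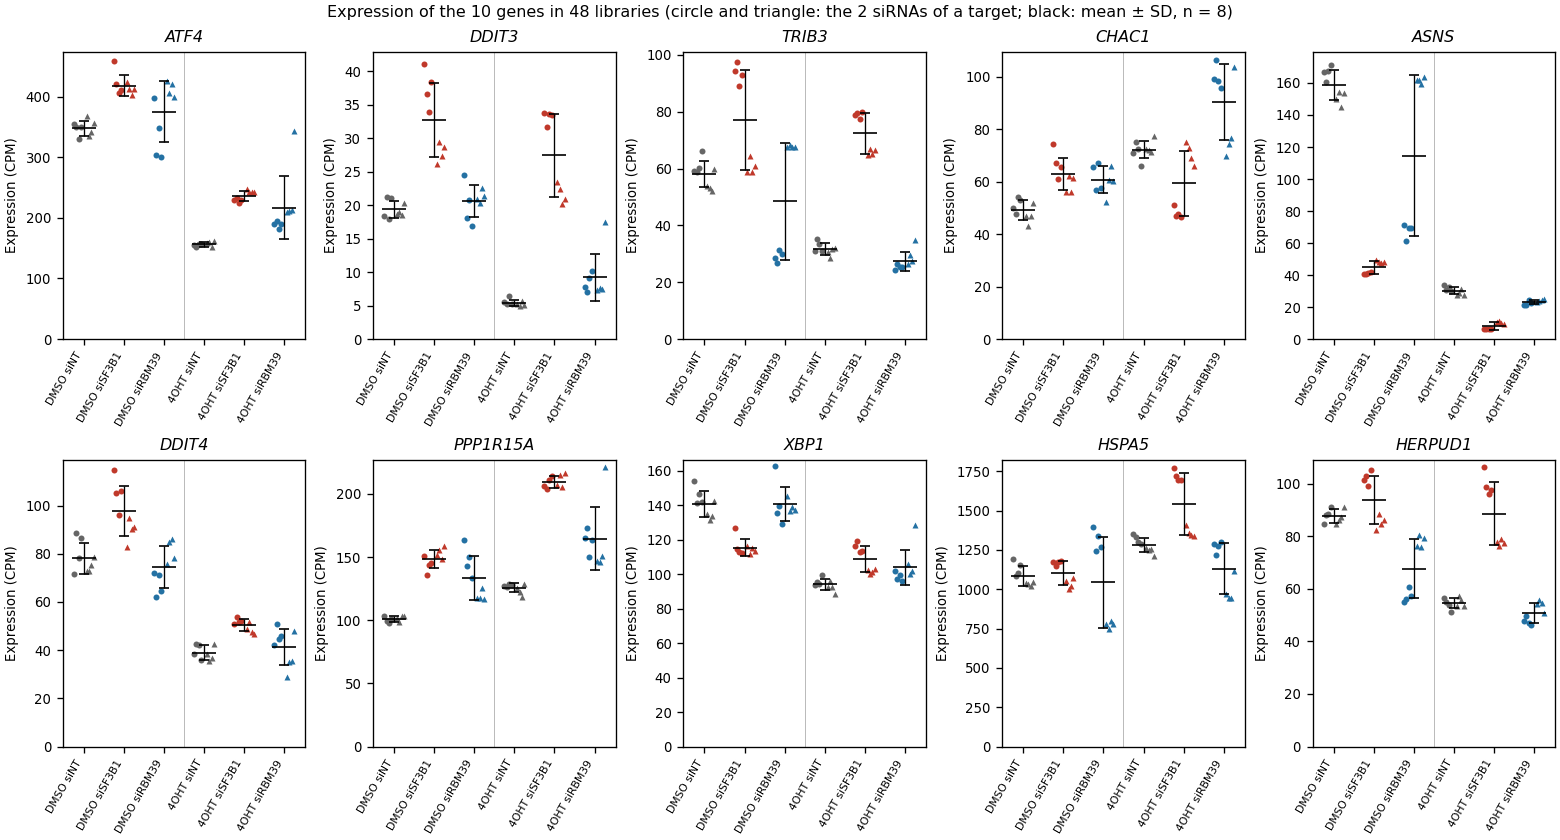
Expression in CPM (linear axis from 0) of each of the 10 genes in 48 libraries by group, with circles for the first and triangles for the second siRNA of a target and black bars for the mean ± SD (n = 8). DDIT3 fell to 4.87 to 6.41 CPM with RAS active and returned to 20.2 to 33.8 CPM after siSF3B1, while ASNS fell from 145 to 171 CPM in DMSO siNT to 6.05 to 11 CPM in 4OHT siSF3B1.

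Activation of RAS in cells with non-targeting siRNAs lowered most of the 10 genes, although most of the ER chaperones and ERAD genes listed further below rose. 7 of the 10 genes fell and 3 rose (adjusted p under 0.05, edgeR's quasi-likelihood test, Benjamini-Hochberg over all genes tested), with a median log2 fold change of -0.78 against -0.00 over all genes. In this comparison 78.1% of the genes tested were called, 39% higher and 39.1% lower, so a call by itself was common and the sizes matter more. The study's methods describe in vitro replicates in general as separate experiments, while the labels give only replicate numbers, and the p-values measure the spread between these libraries. In bulk RNA, fewer cells of a type and less RNA per cell cannot be told apart.

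ASNS (ENSG00000070669), asparagine synthetase and an ATF4 target, changed most. It ranged from 145 to 171 CPM with a median of 158 in DMSO siNT, and from 27.5 to 33.7 CPM with a median of 30.4 in 4OHT siNT. The groups lay far apart, and the log2 fold change was -2.39 (standard error 0.16, adjusted p = 3.06e-18). DDIT3 (ENSG00000175197), which encodes the transcription factor CHOP, ranged from 18 to 21.2 CPM (median 18.8) in DMSO and from 4.87 to 6.41 CPM (median 5.31) in 4OHT. It fell in each 4OHT library below each DMSO library, by 1.84 on the log2 scale (standard error 0.14, adjusted p = 9.72e-17).

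ATF4 (ENSG00000128272) itself fell from a range of 330 to 368 CPM (median 350) to one of 151 to 162 CPM (median 157), without overlap (log2 fold change -1.15, adjusted p = 2.34e-18). DDIT4 (ENSG00000168209), an inhibitor of mTORC1 signalling, had a log2 fold change of -1.001 (adjusted p = 1.14e-15) and TRIB3 (ENSG00000101255), a pseudokinase that restrains ATF4 and CHOP, one of -0.87 (adjusted p = 1.73e-06). Of the genes of the ER arm, HERPUD1 (ENSG00000051108) ranged from 84.6 to 91.2 CPM in DMSO and from 51.3 to 57.2 CPM in 4OHT, a log2 fold change of -0.68 (adjusted p = 1.45e-11). XBP1 (ENSG00000100219) fell by 0.58 on the log2 scale (adjusted p = 2.17e-15). Each of the 7 genes that fell was lower in all 8 4OHT libraries than in any of the 8 DMSO libraries, a separation that 71.4% of all genes tested showed in one direction or the other.

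The genes that rose belong to different branches. CHAC1 (ENSG00000128965), which degrades glutathione and is an ATF4 and CHOP target, rose from 49.2 ± 3.70 to 72.2 ± 3.36 CPM (SD, n = 8 each; log2 fold change 0.55, adjusted p = 3.13e-07). PPP1R15A (ENSG00000087074), also called GADD34, the subunit that directs a phosphatase to eIF2, rose from 101 ± 2.22 to 126 ± 3.48 CPM (0.31, adjusted p = 6.87e-06). HSPA5 (ENSG00000044574), the ER chaperone BiP, was at 1021 to 1192 CPM in DMSO and 1213 to 1352 CPM in 4OHT. The groups did not overlap, yet the log2 fold change of 0.24 had an adjusted p of 0.0285 only and was not called with siNT1 alone (adjusted p = 0.185) or siNT2 alone (0.141). These fits share their spread with the knockdown groups. By siRNA, HSPA5 went from 1133 ± 49.4 to 1317 ± 28.5 CPM with siNT1 (SD, n = 4). With siNT2 it went from 1034 ± 10.4 to 1243 ± 20.8 CPM. The summed fibroblast markers also differed here, at 51482 to 58561 CPM in DMSO siNT against 14178 to 14986 CPM in 4OHT siNT. Most of this lay in COL1A1 (mean 26178 against 6153 CPM) and COL1A2 (13975 against 1331 CPM). COL3A1, DCN, LUM and PDGFRB were lower too, whereas VIM was at 6440 against 6421 CPM. The part of these markers in the results was not tested.

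**Figure D2:**
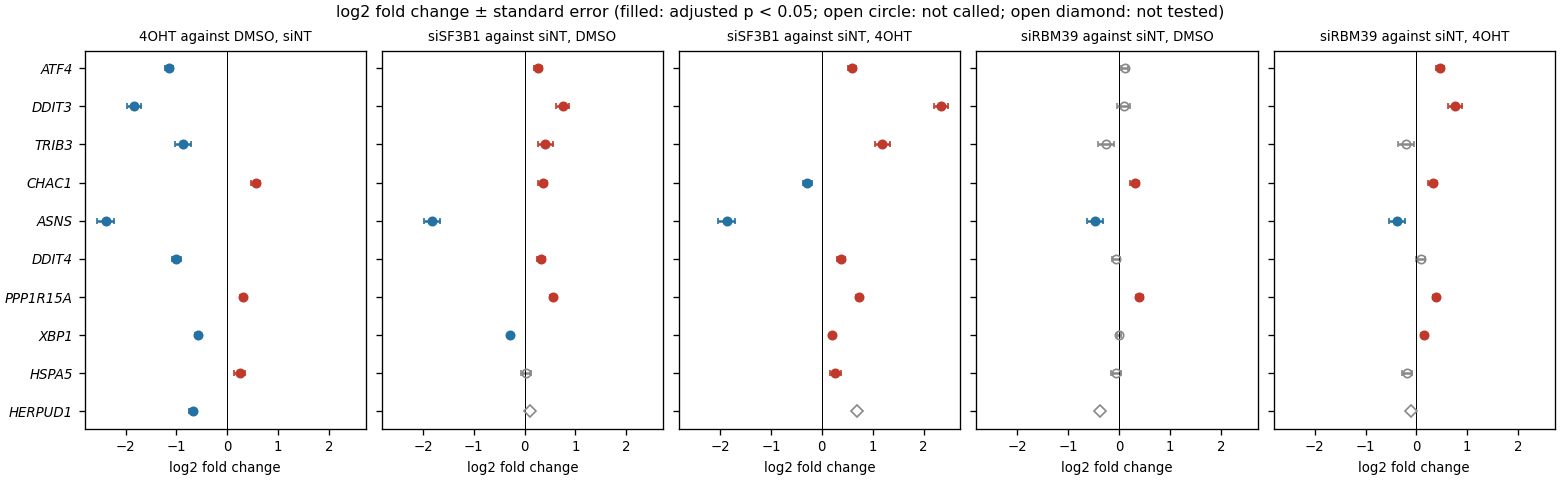
log2 fold change ± standard error for each gene (rows) in 5 comparisons (panels), with filled points for adjusted p under 0.05, open circles for genes not called and open diamonds for HERPUD1 where it was not tested. With siSF3B1 in 4OHT, DDIT3 stood at 2.34 and TRIB3 at 1.19 while ASNS stood at -1.87.

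SF3B1 knockdown raised ATF4, DDIT3, TRIB3, DDIT4 and PPP1R15A in both treatments and lowered ASNS in both, and the rise was larger with RAS active for ATF4, DDIT3 and TRIB3. In DMSO 6 of the 9 genes tested rose and 2 fell, where 72.7% of all genes were called, and in 4OHT 7 rose and 2 fell, where 77.0% were called. Higher calls made up 36.5% of all genes in DMSO and 39.4% in 4OHT. The median log2 fold change of the 9 was 0.32 in DMSO and 0.37 in 4OHT, against 0.02 and 0.03 over all genes. Both knockdowns are compared with the same siNT libraries, so the values after siSF3B1 and siRBM39 are not independent of each other.

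DDIT3 rose most of the 9 in both treatments. In DMSO it ranged from 26.2 to 41.1 CPM (median 31.7) after siSF3B1, above each siNT library, with a log2 fold change of 0.75 (standard error 0.13, adjusted p = 1.31e-06). In 4OHT it ranged from 20.2 to 33.8 CPM (median 27.6) after siSF3B1 against 4.87 to 6.41 CPM in siNT, a 5.05-fold difference (log2 fold change 2.34, standard error 0.14, adjusted p = 4.15e-20). The 4OHT siSF3B1 libraries thus lay within or above the 18 to 21.2 CPM of DMSO siNT. The effect was larger in 4OHT than in DMSO by 1.58 on the log2 scale (interaction, adjusted p = 2.43e-09). siSF3B1-13 gave the higher level, at 33.2 ± 0.957 CPM (SD, n = 4) against 21.8 ± 1.46 for siSF3B1-16 in 4OHT.

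ATF4 rose by less. Its mean went from 348 ± 12.3 to 418 ± 17.7 CPM (SD, n = 8) in DMSO (log2 fold change 0.26, adjusted p = 0.00208) and from 156 ± 3.86 to 236 ± 8.45 CPM in 4OHT (0.59, adjusted p = 2.40e-09). The 4OHT siSF3B1 libraries, at 224 to 247 CPM, stayed below each DMSO siNT library. TRIB3 ranged from 64.7 to 79.9 CPM after siSF3B1 in 4OHT against 28.7 to 35.2 CPM in siNT, a 2.28-fold difference (log2 fold change 1.19, adjusted p = 2.34e-09). In DMSO it rose by 0.41 (adjusted p = 0.0142), with overlap between the groups, and that rise came from siSF3B1-13, at 93.5 ± 3.39 CPM (SD, n = 4), since siSF3B1-16 alone, at 60.7 ± 2.62 CPM, gave 0.05 (adjusted p = 0.812). With siNT1 alone the rise was 0.33 (adjusted p = 0.155).

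PPP1R15A and DDIT4 rose in both treatments. PPP1R15A went to 149 ± 7.07 CPM in DMSO (SD, n = 8; log2 fold change 0.56, adjusted p = 1.70e-11) and to 209.8 ± 4.76 CPM in 4OHT (0.74, adjusted p = 1.95e-15), without overlap with siNT. DDIT4 rose by 0.32 in DMSO (adjusted p = 0.000349) and then by 0.37 in 4OHT (adjusted p = 6.10e-05), although with siSF3B1-16 alone the first was 0.19 (adjusted p = 0.0910).

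CHAC1 and XBP1 moved in opposite directions in the 2 treatments. CHAC1 rose by 0.36 in DMSO (adjusted p = 0.000458), from 43.2 to 54.1 CPM (median 48.7) up to 55.9 to 74.3 CPM (median 61.6), without overlap. In 4OHT it fell by 0.28 (adjusted p = 0.00412), but the 4 siSF3B1-13 libraries at 46.6 to 51.2 CPM carried this fall, while siSF3B1-16, at 65.9 to 75 CPM, overlapped the siNT range of 65.8 to 77.5 CPM and alone gave -0.06 (adjusted p = 0.535). XBP1 fell in DMSO from 131 to 154 CPM to 112 to 127 CPM (log2 fold change -0.29, adjusted p = 7.27e-07) and rose in 4OHT from 88.4 to 99.6 CPM to 100.2 to 119 CPM (0.21, adjusted p = 0.000129), without overlap in either treatment. With siSF3B1-16 alone the rise in 4OHT was 0.08 (adjusted p = 0.203). The interaction was -0.64 for CHAC1 (adjusted p = 6.24e-05), or -0.31 (adjusted p = 0.0545) with siSF3B1-16 alone, and 0.49 for XBP1 (adjusted p = 7.17e-08).

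ASNS showed the largest change of the 9 in DMSO and fell in both treatments. It ranged from 40.6 to 49.4 CPM (median 44.7) in DMSO siSF3B1 and from 6.05 to 11 CPM (median 8.00) in 4OHT siSF3B1. Both ranges lay below all siNT libraries of the same treatment, with a log2 fold change of -1.83 in DMSO (standard error 0.16, adjusted p = 3.54e-14) and one of -1.87 in 4OHT (standard error 0.17, adjusted p = 5.45e-14). The interaction was -0.04 (adjusted p = 0.903).

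The difference between the treatments was called for 5 of the 9 genes, where 37.8% of all genes were called. Beside DDIT3, CHAC1 and XBP1 these were TRIB3 (0.78, adjusted p = 0.00319) and ATF4 (0.33, adjusted p = 0.0135). The call for ATF4 was lost with either siNT or either siRNA against SF3B1 alone, with values of 0.23 to 0.38. For TRIB3 it was lost with siNT2 alone (0.75, adjusted p = 0.0505) and with siSF3B1-13 alone (0.60, adjusted p = 0.0661).

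HSPA5, the chaperone of the ER arm, was called in 4OHT and not in DMSO, and the difference between the treatments was not called (interaction 0.24, adjusted p = 0.190). In DMSO it was at 1103 ± 74.5 CPM after siSF3B1 (SD, n = 8) against 1083 ± 62.2 CPM (log2 fold change 0.03, adjusted p = 0.823). In 4OHT it ranged from 1336 to 1773 CPM against 1213 to 1352 CPM, a log2 fold change of 0.27 (adjusted p = 0.0155) with overlap. The 4 siSF3B1-13 libraries, at 1696 to 1773 CPM, lay above all others of that group, and siSF3B1-16 alone gave 0.06 (adjusted p = 0.686), while the comparison with siNT1 alone gave 0.20 (adjusted p = 0.184).

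HERPUD1, given without a test, ranged from 82.4 to 105 CPM (median 93.7) in DMSO siSF3B1 and from 76.1 to 106 CPM (median 87.6) in 4OHT siSF3B1. It overlapped siNT in DMSO (log2 fold change 0.10) and lay above siNT in 4OHT (0.70). Against the 84.6 to 91.2 CPM of DMSO siNT, siSF3B1-13 in 4OHT lay wholly above, at 99.6 ± 4.52 CPM (SD, n = 4), and siSF3B1-16 wholly below, at 77.7 ± 1.21 CPM.

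The exon for which HERPUD1 was picked was nearly always included without SF3B1 knockdown. The per cent spliced-in index (PSI), the share of reads that include an exon, was 97.7 to 100% in DMSO siNT and 97.5 to 100% in 4OHT siNT (medians 100% in both). After siSF3B1 it was 23.5 to 38.6% (median 30.7%) in DMSO and 13.3 to 32.2% (median 24%) in 4OHT, and after siRBM39 95.5 to 100% (median 97.8%) and 90.9 to 100% (median 98.0%). The siSF3B1 libraries lay far below all others with both siRNAs, and the differences in mean PSI from siNT were -68.8 percentage points in DMSO and -76.4 in 4OHT with siSF3B1, while siRBM39 gave -1.29 and -2.93. These values rest on 60 to 127 reads per siSF3B1 library. Since they are what HERPUD1 was picked for, they are no test of it, and among all 7673 cassette exons compared, 26.8% were called after siSF3B1 in DMSO and 30% in 4OHT.

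**Figure D3:**
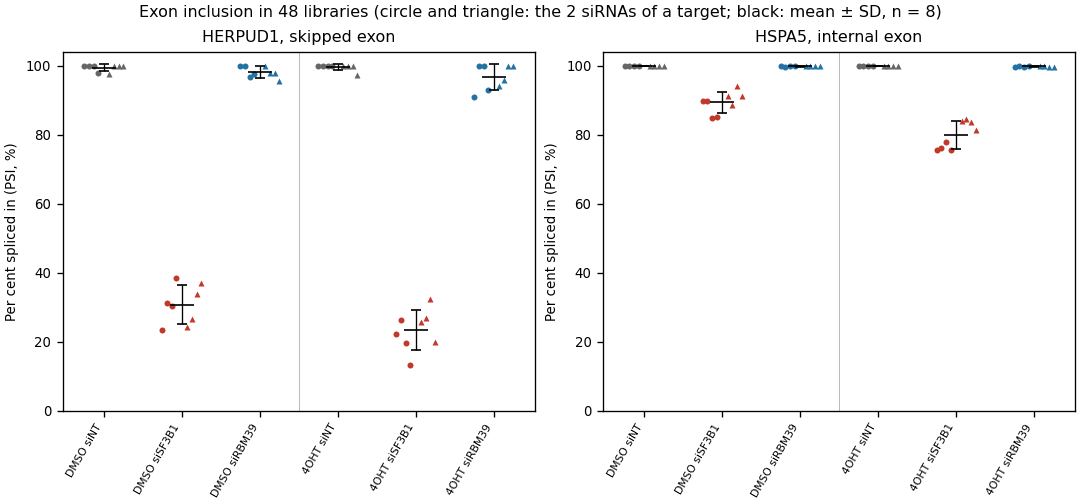
PSI in per cent (linear axis from 0 to just over 100) of the HERPUD1 exon and the HSPA5 exon in 48 libraries by group, with circles and triangles for the 2 siRNAs of a target and black bars for the mean ± SD (n = 8). HERPUD1 lay at 13.3 to 38.6% and HSPA5 at 75.5 to 94.2% in the siSF3B1 libraries, and both near 100% elsewhere.

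Of the other 3 events of HERPUD1 that passed the filters, 1 exon was lower after siSF3B1 in every library and 2 introns overlapped siNT. The exon, 123 bases long, went from 98.8 to 100% in DMSO siNT to 85.4 to 95.3% after siSF3B1, and from 100% in each 4OHT siNT library to 82.8 to 97.4%, differences in mean PSI of -8.62 and -9.93 points. siSF3B1-13 gave -13.6 points and siSF3B1-16 -6.29 points in 4OHT. The introns, of 2843 and 2419 bases, differed from siNT by 0.11 and 1.20 points in DMSO and by 1.26 and 1.19 points in 4OHT. The 88-base intron shown above, just before the skipped exon, had too few reads to pass and was chosen after its values were seen. It was retained at 5.52 ± 5.60% (SD, n = 8) in DMSO siSF3B1 and 8.38 ± 5.64% in 4OHT siSF3B1, against 1.07 ± 2.43% and 0.278 ± 0.785% in siNT, on as few as 6 reads in a library, and the ranges overlapped.

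An exon of HSPA5 was also skipped in part of the reads, an event the choice of genes did not use. It passed the filter on PSI spread, at least 5 points over all libraries, only through the siSF3B1 libraries. Its adjusted p-values are therefore no independent support, and the PSI values are to be read as a description. Inclusion of the exon shown above was 100% in each of the 16 siNT libraries, with 0 skipping reads of 9025 in DMSO and of 10984 in 4OHT, which allow up to 0.0332% and 0.0273% skipping (3 counts, counting error only). After siSF3B1 it ranged from 84.9 to 94.2% (median 89.8%) in DMSO and from 75.5 to 84.7% (median 79.6%) in 4OHT, on 933 to 1892 reads per library. All 16 siSF3B1 libraries lay below all siNT and siRBM39 libraries. The difference in mean PSI was -10.6 points in DMSO (adjusted p = 7.30e-24, limma on the logit scale) and -20.1 points in 4OHT (adjusted p = 3.67e-28).

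The fall was larger in 4OHT, by a difference of -9.48 points (adjusted p = 0.0128), where 0.613% of exons were called, though with siNT1 alone (adjusted p = 0.145) or siNT2 alone (0.160) the call was lost, as it was with a minimum of 10 points. In 4OHT siSF3B1-13 gave 76.3 ± 1.06% (SD, n = 4) and siSF3B1-16 83.5 ± 1.44%. After siRBM39 inclusion stayed at 99.6 to 100%, with a difference of -0.13 points in DMSO (adjusted p = 0.752), while that in 4OHT was -0.20 (adjusted p = 0.424). Against siRBM39 directly, siSF3B1 gave -10.5 points in DMSO (adjusted p = 5.97e-23), where 23.4% of exons were called, and -19.9 points in 4OHT (adjusted p = 3.70e-27), where 26.3% were.

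Of the 84 events of the 10 genes, 69 had a PSI in all libraries, 39 also had enough reads and 6 passed the filters on range and balance, 4 of them in HERPUD1. 1 event, the HSPA5 exon, was called after siSF3B1 in each treatment, and none of the 2 events tested outside HERPUD1 was called with RAS activation or after siRBM39, where 1.60% of exons with RAS, 8.26% with siRBM39 in DMSO and 9.34% in 4OHT were. Among introns, the kind of the other event tested, 0.0953% were called with RAS, 11.1% with siSF3B1 in DMSO and 14.9% in 4OHT, and 2.06% with siRBM39 in DMSO and 2.08% in 4OHT. The HSPA5 exon entered these tests through its spread after siSF3B1, so whether it was called is no independent result. The limits are uneven, because ATF4, DDIT3, XBP1, TRIB3, CHAC1, ASNS and PPP1R15A had no event that passed, and of the 26 events of ASNS only 1 had enough reads. A 96-base intron of DDIT4 that failed the balance filter was retained at 10.5 ± 4.08% in DMSO siSF3B1 and 16.6 ± 4.56% in 4OHT siSF3B1 (SD, n = 8), against 3.99 ± 2.97% and 4.79 ± 2.39% in siNT.

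After RBM39 knockdown PPP1R15A and CHAC1 rose and ASNS fell in both treatments, and ATF4, DDIT3 and XBP1 rose in 4OHT. In DMSO 2 of the 9 tested rose and 1 fell, where 46.1% of all genes were called, and in 4OHT 5 rose and 1 fell, where 56.4% were called. The median log2 fold change of the 9 was -0.00 in DMSO and 0.14 in 4OHT, against 0.02 and 0.05 over all genes. PPP1R15A rose in both treatments without overlap, to 134 ± 17.4 CPM in DMSO (SD, n = 8; log2 fold change 0.40, adjusted p = 2.49e-07) and 165 ± 24.8 CPM in 4OHT (0.39, adjusted p = 2.97e-07). CHAC1 rose by 0.31 (adjusted p = 0.00428) and 0.33 (adjusted p = 0.00177), with overlap. The first call was lost with siNT1 alone (0.25, adjusted p = 0.105) and the second with siRBM39-08 alone (0.14, adjusted p = 0.267). Without replicate 4 of siRBM39-08 the rise in 4OHT was 0.30 (adjusted p = 0.00423).

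ATF4 and DDIT3 rose in 4OHT and were not called in DMSO. ATF4 ranged from 182 to 342 CPM (median 202) against 151 to 162 CPM in siNT, a log2 fold change of 0.47 (adjusted p = 1.37e-06), and of 0.34 (adjusted p = 1.74e-07) without replicate 4 of siRBM39-08. DDIT3 ranged from 6.97 to 17.5 CPM (median 7.75) against 4.87 to 6.41 CPM, a log2 fold change of 0.76 (adjusted p = 7.44e-06), and of 0.57 (adjusted p = 2.89e-05) without that library. In DMSO the values were 0.11 for ATF4 (adjusted p = 0.256) and 0.09 for DDIT3 (adjusted p = 0.589). The interaction was called for these genes alone of the 9, at 0.36 (adjusted p = 0.0181) and 0.67 (adjusted p = 0.0106), where 14.1% of all genes were called, and was 0.24 (adjusted p = 0.0124) and 0.48 (adjusted p = 0.0158) without that library. Both calls were lost with either siNT alone.

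XBP1 rose in 4OHT by 0.14 (adjusted p = 0.00935) and by 0.09 (adjusted p = 0.0441) without that library, and was not called with siNT1 alone (0.09, adjusted p = 0.213) or siRBM39-06 alone (0.07, adjusted p = 0.208). Without that library PPP1R15A rose by 0.32 (adjusted p = 2.22e-07). ASNS fell by 0.38 in 4OHT (adjusted p = 0.0373), and by 0.40 without that library (log2 fold change -0.40, adjusted p = 0.0344), where all siRBM39 libraries, at 21.2 to 25 CPM, lay below the 27.5 to 33.7 CPM of siNT. Its call was lost with either siNT alone (adjusted p = 0.0602 and 0.251) and without any one replicate number. HERPUD1, without a test, was lower after siRBM39 in DMSO, at 55.0 to 80.7 CPM against 84.6 to 91.2 CPM (log2 fold change -0.37), and overlapped siNT in 4OHT (-0.10).

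With the siRNAs against RBM39 taken singly in DMSO, HSPA5 was called in opposite directions, and ASNS and TRIB3 were called with siRBM39-06 and not with siRBM39-08. HSPA5 was at 1244 to 1394 CPM with siRBM39-06 and at 747 to 799 CPM with siRBM39-08, on either side of the 1021 to 1192 CPM of siNT. Alone, siRBM39-06 gave a log2 fold change of 0.27 (adjusted p = 0.000284) and siRBM39-08 one of -0.48 (adjusted p = 2.54e-07), while both together gave -0.06 (adjusted p = 0.685). ASNS was at 61.0 to 71.5 CPM with siRBM39-06 and at 159 to 164 CPM with siRBM39-08, within the siNT range of 145 to 171 CPM. The pooled fall of 0.47 (adjusted p = 0.0110) therefore came from siRBM39-06, which alone gave -1.23 (adjusted p = 1.19e-12), while siRBM39-08 alone gave 0.03 (adjusted p = 0.853). CHAC1 was called higher with each, at 0.33 (adjusted p = 0.00351) and 0.29 (adjusted p = 0.0319), as was PPP1R15A, at 0.54 (adjusted p = 1.12e-14) and 0.24 (adjusted p = 0.000621).

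TRIB3 followed ASNS, at 26.7 to 31.4 CPM with siRBM39-06 and 67.6 to 68.2 CPM with siRBM39-08 against 52.2 to 66.2 CPM in siNT. siRBM39-06 alone gave a log2 fold change of -0.995 (adjusted p = 5.14e-10), siRBM39-08 alone 0.23 (adjusted p = 0.0947) and both together -0.26 (adjusted p = 0.160). HERPUD1 was at 57.4 ± 2.53 CPM with siRBM39-06 and 78.1 ± 2.21 CPM with siRBM39-08 (SD, n = 4). RBM39 itself was at 24.2 to 31 CPM in all 8 libraries. In 4OHT the gap between the siRNAs remained for HSPA5, at 1270 ± 36.4 against 992 ± 82.4 CPM, and was small for ASNS, at 22.4 ± 1.65 against 24 ± 0.887 CPM. The difference between the siRNAs itself was not tested.

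**Figure D4:**
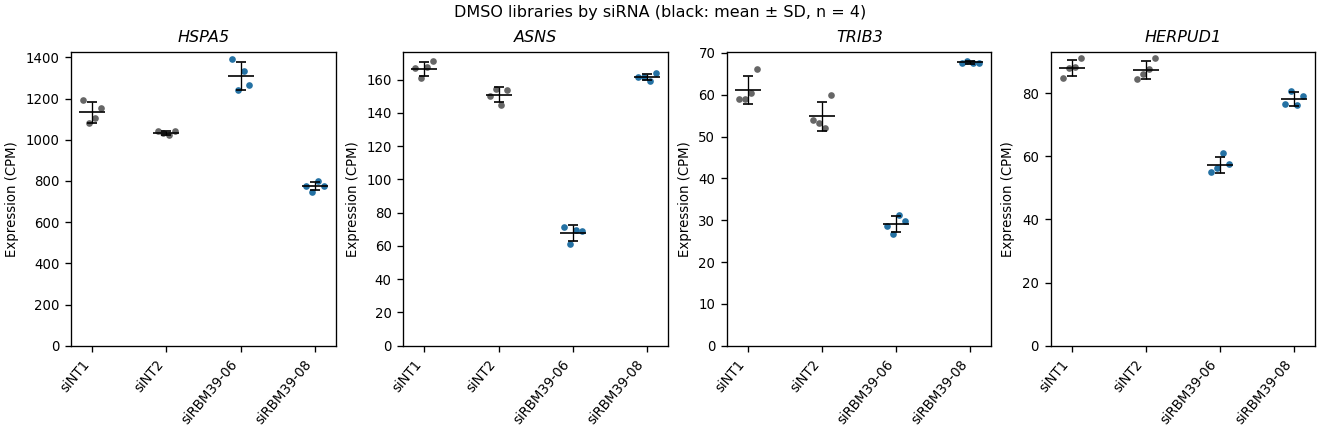
Expression in CPM (linear axis from 0) of HSPA5, ASNS, TRIB3 and HERPUD1 in the DMSO libraries by siRNA, with a point per library and black bars for the mean ± SD (n = 4). HSPA5 lay above siNT with siRBM39-06 and below it with siRBM39-08, whereas ASNS and TRIB3 lay below siNT with siRBM39-06 and not with siRBM39-08.

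Compared directly, without siNT, siSF3B1 and siRBM39 differed in 6 of the 9 genes tested in DMSO and 7 in 4OHT, where 67.7% and 71.4% of all genes were called. DDIT3 was higher after siSF3B1 by 0.66 in DMSO (adjusted p = 1.42e-05) and, in 4OHT, by 1.57 (adjusted p = 1.51e-14), and TRIB3 by 0.67 (adjusted p = 0.000146) and 1.40 (adjusted p = 5.06e-11). For TRIB3 in DMSO the call was lost with siSF3B1-16 alone (0.32, adjusted p = 0.131) or siRBM39-08 alone (0.18, adjusted p = 0.148). ASNS was lower by 1.36 (log2 fold change -1.36, adjusted p = 2.15e-10) and 1.49 (-1.49, adjusted p = 5.87e-11). ATF4 was not called in either treatment, at 0.16 (adjusted p = 0.0661) and 0.13 (adjusted p = 0.134). CHAC1 was lower after siSF3B1 in 4OHT (-0.61, adjusted p = 5.76e-08) but not called in DMSO (0.05, adjusted p = 0.634), and XBP1 the reverse, with -0.29 in DMSO (adjusted p = 8.88e-07) against 0.06 in 4OHT (adjusted p = 0.224). Without replicate 4 of siRBM39-08, all 9 were called in 4OHT, with DDIT3 at 1.76 (adjusted p = 3.10e-19), TRIB3 at 1.45 (adjusted p = 3.33e-11), CHAC1 at -0.58 (adjusted p = 1.86e-07) and ASNS at -1.47 (adjusted p = 2.06e-10).

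Over the 48 libraries the level of HERPUD1 went most closely with that of TRIB3 among all 9990 other genes tested (Pearson r of log2 CPM 0.95), followed by SIAH2 and EYA4 (both 0.93). ATF4 went with MAP3K14 and SYNPO (both 0.97) and TPT1 (0.96), and HSPA5 with C3orf21 (0.88), MLEC (0.86) and KHNYN (0.86). Within the 10 genes, ATF4 correlated with DDIT4 at 0.91 and DDIT3 at 0.81 but with ASNS at 0.58, and ASNS was opposed to PPP1R15A (-0.86) and HSPA5 (-0.72). These values describe libraries that share 6 group means, and no test was made.

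The rest of the pathway was read from 5 lists of 122 genes, of which 117 were tested. With RAS active, 30 of 39 other ATF4 targets fell and 6 rose (median log2 fold change -0.79), while 20 of 28 ER chaperones and folding enzymes rose and 2 fell (median 0.43) and 16 of 25 ERAD genes rose and 3 fell (median 0.37). The median over all genes was -0.00, and 78.1% of all genes were called, 39% higher and 39.1% lower. NUPR1, a stress-induced chromatin protein, fell from 130.1 to 4.29 CPM (log2 fold change -4.92, adjusted p = 3.81e-33) and PCK2, a mitochondrial enzyme of gluconeogenesis, from 63.6 to 7.52 CPM (-3.08, adjusted p = 1.04e-25). GDF15, a secreted stress cytokine, rose from 44.6 to 351 CPM (2.98, adjusted p = 4.29e-26). ERO1L, an ER oxidase, rose by 1.39 (adjusted p = 1.30e-21), EDEM3 and EDEM1, which mark glycoproteins for disposal, by 1.60 (adjusted p = 6.04e-19) and 1.37 (adjusted p = 3.49e-16), and ERN1, which encodes IRE1, by 1.33 (adjusted p = 2.45e-11).

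After siSF3B1, 10 ATF4 targets rose and 17 fell of 39 in DMSO (median -0.01, all genes 0.02), and 13 and 18 in 4OHT (median -0.15, all genes 0.03). As 72.7% of all genes were called in DMSO and 77.0% in 4OHT, the number called in this and the other lists after siSF3B1 is to be read against those shares. GDF15 rose further in both treatments (1.85, adjusted p = 2.73e-18, and 1.47, adjusted p = 2.57e-15). Upstream of ATF4, 6 of 17 rose and 6 fell in DMSO, and 6 and 8 in 4OHT, and the genes that fell most were subunits of eIF2B, the exchange factor that phosphorylated eIF2 blocks. EIF2B2 went from 28.6 to 9.78 CPM in DMSO (log2 fold change -1.55, adjusted p = 8.69e-21) and from 35.6 to 7.87 CPM in 4OHT (-2.17, adjusted p = 3.50e-26). EIF2B5 fell by 0.89 in DMSO (adjusted p = 5.94e-20) and fell by 1.22 in 4OHT (adjusted p = 3.61e-25).

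Among 28 chaperones, 12 rose and 6 fell in DMSO and 10 and 7 in 4OHT after siSF3B1, with HYOU1, a chaperone and exchange factor for HSPA5, lower in both (-1.11, adjusted p = 4.00e-18, and -0.96, adjusted p = 3.51e-16). Of 25 ERAD genes 11 rose and 7 fell in DMSO and 11 and 8 in 4OHT, shares called that are near those of all genes. DERL2, a channel component, rose by 0.86 (adjusted p = 1.85e-21) and 0.78 (adjusted p = 4.15e-20), whereas VCP, the ATPase that draws proteins from the membrane, fell by 0.98 (adjusted p = 2.63e-19) and 1.15 (adjusted p = 6.38e-22). Of 9 sensors and processing factors of the unfolded protein response, 4 rose and 2 fell in DMSO, and 5 and 3 in 4OHT.

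After siRBM39, 5 ATF4 targets rose and 19 fell of 39 in DMSO (median -0.22, all genes 0.02), and 10 and 13 in 4OHT (median 0.03, all genes 0.05), where 46.1% and 56.4% of all genes were called. SLC7A11, the cystine transporter, fell by 1.72 (adjusted p = 2.52e-12) and 1.30 (adjusted p = 4.34e-09). EIF2B2 and EIF2B5 fell in both treatments here as well, EIF2B2 by 0.57 (adjusted p = 1.76e-07) and 1.01 (adjusted p = 2.57e-14) and EIF2B5 by 0.62 (adjusted p = 7.41e-14) and 0.81 (adjusted p = 4.36e-18), among 6 of 17 that fell in each treatment, while 3 rose in DMSO and 0 in 4OHT. Of 28 chaperones 13 rose and 4 fell in DMSO and 3 and 3 in 4OHT, of 25 ERAD genes 6 and 4 and then 5 and 5, and of 9 sensors 1 and 2 and then 2 and 2. The chaperone DNAJB11 rose by 0.63 (adjusted p = 1.14e-10) and 0.33 (adjusted p = 5.02e-05), and EDEM1 fell by 0.72 (adjusted p = 1.76e-07) and 0.68 (adjusted p = 3.51e-07).

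**Figure D5:**
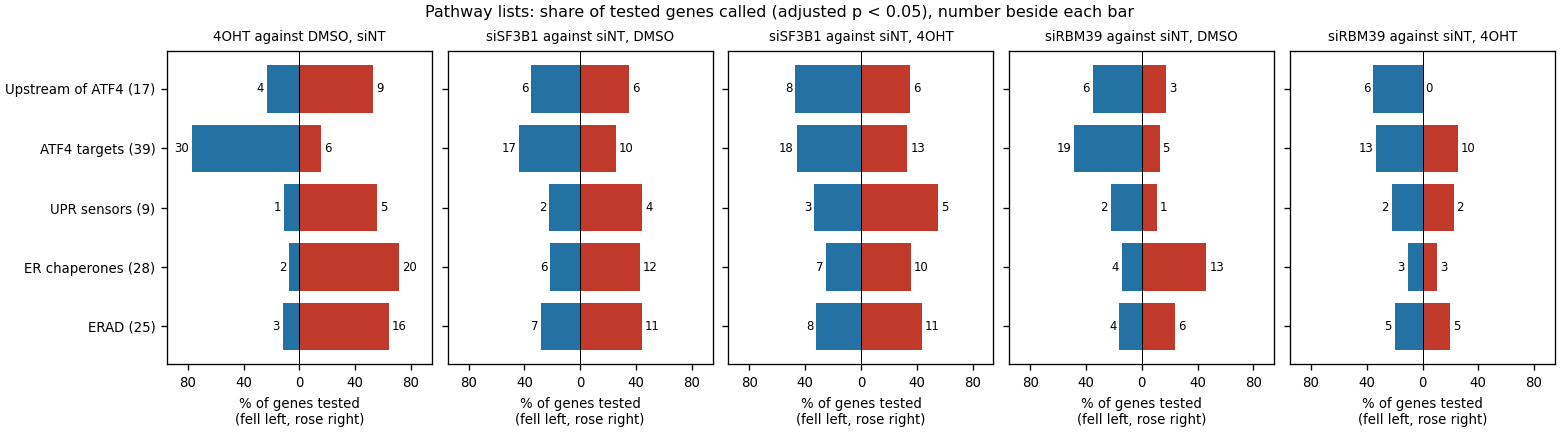
Share of the tested genes of each list, in per cent, that fell (left, blue) or rose (right, red) at an adjusted p under 0.05 in 5 comparisons, with the number of genes beside each bar and the number tested beside each list name. With RAS active 30 of 39 ATF4 targets fell while 20 of 28 ER chaperones rose, where 39.1% of all genes tested were called lower and 39% higher.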

How the data were processed

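RNA was sequenced from 48 libraries, and the authors aligned reads with vast-tools against an annotation they name hg19, with deposited coordinates that lie in GRCh38. The deposited tables hold raw counts per gene, cRPKM (RPKM corrected for mappability, by the authors) and, per splicing event, PSI in percent with the reads behind it. The authors' deposited normalised CPM table was not used. Samples were grouped by their titles, and 4 siNT2 libraries in 4OHT carry a label that also names siNT1. No per-sample column was left without a sample (0).

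Counts were tested in R 4.3.3 with edgeR 4.0.16 (glmQLFit, glmQLFTest) after TMM scaling, in 1 model with a mean for each of 6 groups, over the 9991 genes whose counts summed to 10000 or more. Events were tested with limma 3.58.1 on the logit of 0.01 plus 0.98 of the PSI fraction, each kind of event on its own. Entry needed the score VLOW or better throughout, PSI values spread over 5 points or more and, in retained introns, a balance p no lower than 0.05. Calls took an adjusted p under 0.05 and 5 points of difference or more. All p-values were adjusted by Benjamini-Hochberg over the table.

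The genes, the lists and the tests were chosen with earlier results of these data known. All 10 genes are named in each comparison. List genes are named as up to 2 per direction, list and comparison, by size of change among called genes without overlap, and the 3 most alike genes for HERPUD1, ATF4 and HSPA5. Counts per library ranged from 31467221 to 52734636. All 72 pairs of replicates of a siRNA were further apart than sampling noise (chi-square per degree of freedom at least 2.00). The alternatives were limma-voom, DESeq2 1.42.0, DESeq2's size factors, a minimum of 1 count, only the groups compared, 12 groups with 1 per siRNA, single siRNAs, other event filters, a replicate block and each replicate number left out. After the data were seen, a fit that leaves out the 4OHT library siRBM39-08 replicate 4 was added. Procedures were tested on simulated data. Exon loci were found in GRCh37 by matching exon and intron lengths, with no coordinate converted.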

Additional observations from a re-analysis of the deposited data

Results flagged for a closer look

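Values of 78 groups of 8 libraries were examined for a library far from the rest of its group, and 8 were found. The cut-off gives about 1 in 20 groups for normally distributed values. That rate does not apply here, because the groups pool 2 siRNAs and PSI cannot exceed 100%. Replicate 4 of siRBM39-08 in 4OHT had ATF4 at 342.5 CPM, DDIT3 at 17.52 CPM, PPP1R15A at 221.1 CPM and XBP1 at 128.5 CPM, each above the other 7 libraries of 4OHT siRBM39. Replicate 1 of siSF3B1-13 in DMSO had ATF4 at 458.1 CPM, against 402.3 to 423.9 in the others, and XBP1 at 126.7 CPM, against 111.6 to 116.6. For HERPUD1, PSI of the skipped exon was 97.47% in replicate 4 of siNT2 in 4OHT and PSI of the 123-base exon was 98.75% in replicate 2 of siNT1 in DMSO, where all other libraries of those groups were at 100%.

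By the interaction in edgeR, the effect of siSF3B1 differed between 4OHT and DMSO for ATF4 (0.33 on the log2 scale), DDIT3 (1.58) and XBP1 (0.49). It also differed for TRIB3 (0.78) and CHAC1 (-0.64). The effect of siRBM39 differed for ATF4 (0.36) and DDIT3 (0.67). For inclusion of the HSPA5 exon, the siSF3B1 difference of -9.48 points was called by limma. That exon entered the tests through its spread after siSF3B1, so the call is no independent result. The call was lost with siNT1 alone, with siNT2 alone and with a larger minimum difference.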

How the results depend on the processing

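Of 1049 log2 fold changes recomputed under other settings, 951 were kept, 59 lost the call, 15 gained one, 18 changed sign and 6 values without a test moved. Kept means the same direction and side of the threshold. For HERPUD1 values without a test it means a shift smaller than the mean SD within groups. Of 226 PSI differences 221 were kept, 3 lost the call and 2 moved. After siRBM39 in DMSO, XBP1 changed sign under DESeq2 (0.0015), DESeq2's size factors (0.0016), a minimum of 1 count (0.0123), 12 groups (0.0005), siNT2 alone (0.0482), siRBM39-06 alone (0.0091) and without replicate number 2, 3 or 4 (range -0.0364 to 0.0271 over the numbers left out, with 0.0001 and 0.002 between). There HSPA5 also did with siNT2 alone (0.0078) and siRBM39-06 alone (0.27), ASNS (0.0294), DDIT4 (0.062) and TRIB3 (0.23) with siRBM39-08 alone, and ATF4 with siRBM39-06 alone (-0.0471). DDIT4 did in 4OHT with siRBM39-08 alone (-0.11), and HSPA5 after siSF3B1 in DMSO with siNT1 alone (-0.0421) and siSF3B1-16 alone (-0.0747).

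Genes called after siRBM39 in DMSO numbered 5 with 12 groups and 6 with siRBM39-06 alone. Those whose siSF3B1 effect differed between treatments numbered 3 with siNT2, siSF3B1-13 or siSF3B1-16 alone. For siRBM39 that number was 1 with only the groups compared, 4 with 12 groups, 0 with siNT1 or siNT2 alone, 7 with siRBM39-06 alone and 0 to 1 with a replicate number left out. Without the balance filter 2 events were called after siSF3B1, against siNT or siRBM39, in either treatment. The difference of the siSF3B1 effect on events was called for 0 with a minimum of 10 points, siNT1 alone or siNT2 alone. The cause of these changes was not tested. PSI limited to 1 to 99 left no event of the 10 genes. With a replicate number left out, genes called numbered 9 to 10 for RAS, 7 to 8 and 8 to 9 for siSF3B1 in DMSO and 4OHT, 3 to 4 and 4 to 5 for siRBM39, 4 to 5 for the siSF3B1 difference, and 5 to 6 and 7 to 9 for siSF3B1 against siRBM39.

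Deviations from the mean of each siRNA and treatment were little more alike between libraries with the same replicate number than between others. The mean r was 0.0126 against -0.00215, and r was over 0.1 in 84 of 264 pairs against 226 of 792. With the replicate block, 10 genes were called for RAS and 70 of 70 values kept their call. HERPUD1's skipped exon had as few as 33 reads in a library, which limits the precision of its PSI.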
